A study of Mus musculus with 8 samples.

Results

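Transcripts of the translation initiation and elongation factors were followed in RNA recovered with ELAVL1 from a gonadotrope cell line. Members were all array probes whose platform gene symbol begins with Eif1 to Eif6 or with Eef1 or Eef2, leaving out Eif2ak3, which gave 94 of 25697 probes, for 57 of 16593 named genes. They hold the factors themselves, 3 kinases of eIF2 alpha, the eIF4E-binding proteins, the eEF2 kinase and 3 enzymes that methylate eEF1A. LbetaT2 cells derive from a mouse pituitary tumour and keep features of gonadotropes, and ELAVL1 (HuR) binds U-rich and AU-rich stretches of messenger RNA. After 16 h of serum starvation, cells were exposed for 30 min to GnRH (gonadotropin-releasing hormone) or to its vehicle, and RNA pulled down with an ELAVL1 antibody was hybridised to an Illumina bead array, 1 array for each of 4 GnRH and 4 vehicle samples. All samples are the same line. Whether the replicates were independent cultures is not stated, and the spread behind the p-values may therefore be technical. RNA from before the pull-down was not analysed here, so a value is an amount in the pull-down, in which the amount in the cell and the share bound cannot be told apart. No pull-down with a control antibody was among the samples. RNA carried over without binding to ELAVL1 therefore cannot be told apart either, and a signal does not show that a transcript was bound.

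Initiation begins when eIF2, carrying GTP and the initiator transfer RNA, joins the small ribosomal subunit together with eIF1, eIF1A, eIF3 and eIF5. The eIF4 proteins bring in the messenger RNA, with eIF4E on the cap, eIF4G as the scaffold and eIF4A as the helicase, and eIF5B and eIF6 act at the joining of the large subunit. Exchange of GDP for GTP on eIF2 by eIF2B is blocked when a kinase phosphorylates eIF2 alpha, and elongation is carried by eEF1A, its exchange factors and eEF2. GnRH is known to act on cap-dependent translation in gonadotropes through MAP kinases and mTOR, which modify these proteins.

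Between 10802 and 11663 probes per array were above background (detection p below 0.05), and the median raw signal per array was 33.4 to 42.1. Signals below are background-corrected, quantile normalized log2 values, on which probes near the floor read a little above 4. With 4 arrays per group, precision is limited by their number. Egr1, an immediate early transcription factor, rose from 9.36 ± 0.38 to 13.16 ± 0.06 (SD, n = 4), and Fos rose 19.7-fold (limma adjusted p = 2.36e-05). Gnrhr, the GnRH receptor, and Cga, the gonadotropin alpha subunit, were above background on 8 of 8 arrays. Lhb and Fshb, the gonadotropin beta subunits, were not above background on any array, and of 2 Nr5a1 probes 1 was above it on 4 arrays and the other on 1. None of the 4 probes for hormones of other pituitary lineages was above background. Of 13 probes for stroma, endothelium and blood, 3 were, on all 8 arrays, 2 of Pecam1 and 1 of Cdh5, with changes of 0.11 to 0.28 that did not pass; their part in the results below was not tested. Elavl1 stood at 12.45 ± 0.11 in vehicle and 12.20 ± 0.13 after GnRH (SD, n = 4), a log2 change of -0.25 ± 0.13 (SE, limma adjusted p = 1.00).

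No translation factor probe passed as changed after GnRH. Of 94 probes 70, from 45 genes, were above background on at least 4 arrays and were tested, and 0 were higher and 0 lower (limma, Benjamini-Hochberg adjusted p below 0.05 over all tested probes). Over the whole array the same test called 0.265% of 11318 tested probes as higher and 0% as lower. At an unadjusted p below 0.05, 1 member probe was higher and 1 lower, beside 2.09% and 0.813% of all tested probes. On 0 member probes did the GnRH and vehicle values separate fully in either direction, beside 1.53% upward and 0.618% downward over the array. The 70 fitted log2 changes ran from -0.63 for Eif5a2 to 0.36 for 1 probe of Eif4e3, and the adjusted p of every member was 1.00 (limma).

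The 95% interval of the log2 change lay inside a 2-fold change in both directions for 64 of 70 member probes, beside 93.9% of all tested probes. For dim probes this is no bound on the transcript, because the offset compresses changes near the floor. With no filter on dim probes 87 of 94 lay inside 2-fold, most probes below background included. Among the 58 member probes above background on all 8 arrays, 53 lay inside it. The 6 whose intervals reached further were 1 probe each of Eif2s2, Eif3a, Eif4a2, Eif4g2 and Eif5, and the Eif5a2 probe. Eif2s2, Eif3a, Eif4a2 and Eif4g2 each had another tested probe whose interval stayed inside 2-fold, and Eif5 had 2. The members' median log2 change was -0.08, beside -0.01 for all tested probes, and it was 0.03 beside 0.11 when arrays were not normalized to each other. Of the 70 changes 52 were below 0 (74.3%, beside 51.9% over the array). Probes of 1 gene and arrays are shared among these values, so the share is a description.

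**Figure D1:**
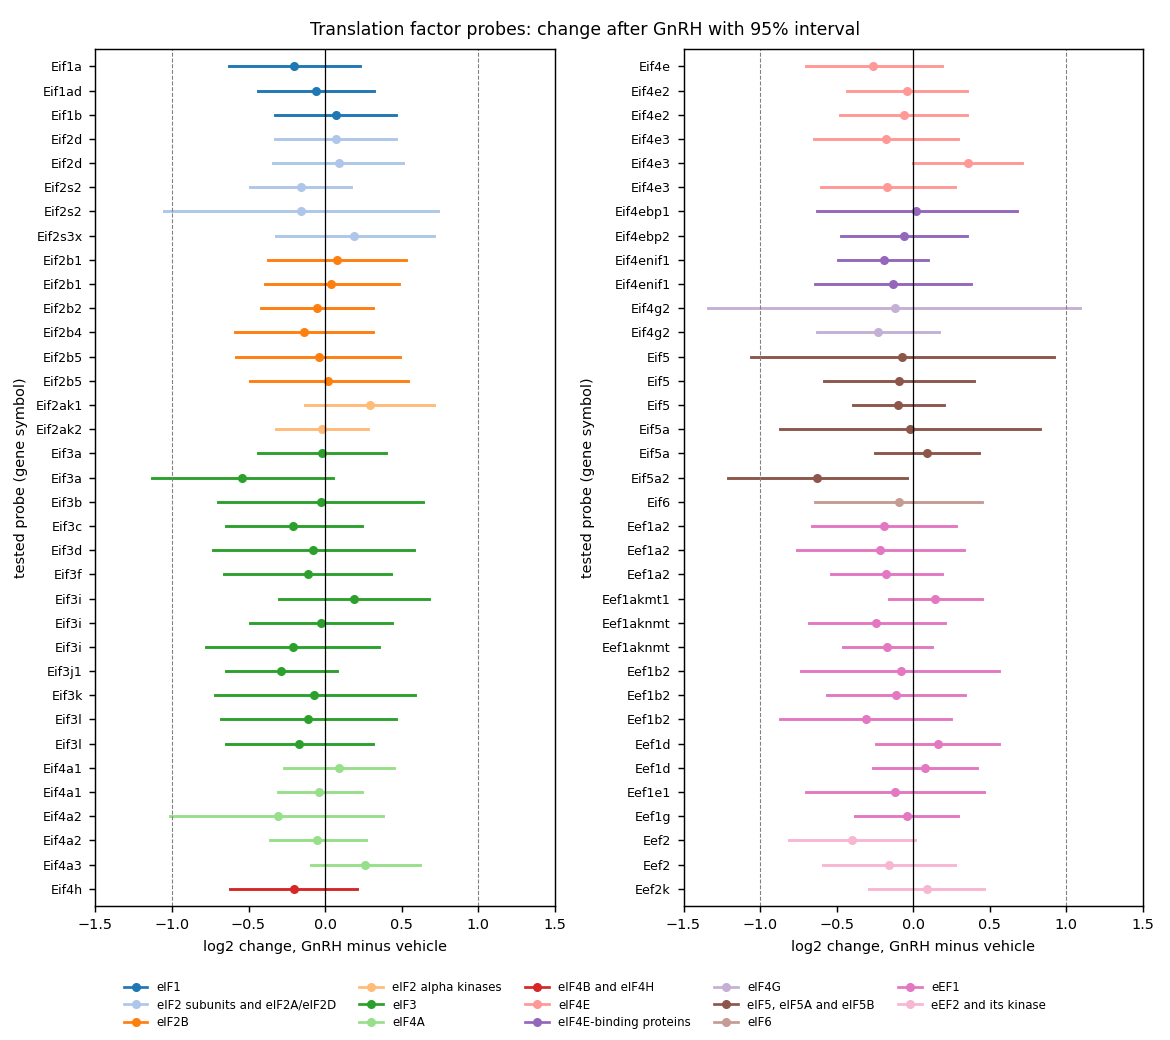
Log2 change after GnRH (GnRH minus vehicle, x axis) for each of the 70 tested probes (y axis, gene symbol), with its 95% limma interval (n = 4 arrays per group, coloured by role; dashed lines mark a 2-fold change). The points lie between -0.63 and 0.36, and all intervals but that of Eif5a2 and of 1 Eif4e3 probe include 0.

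The promoters of these genes were searched for elements known from immediate early genes such as Egr1 and Fos, to show what letters lie at their starts. RefSeq windows (GRCm38.p6) from 250 bases before to 50 after the gene start were found for 44 of the 57 genes, 58 windows in all. The CArG box, the serum response factor element, was in 0 of 58 member windows, in 6 of 30 windows of the genes called as higher (3 of 22 genes) and in 1.63% of all 32851 windows. The full cyclic AMP response element TGACGTCA, a palindrome, was in 1 member window (1.72%), that of Eef2, and in 1.79% of all windows. The ETS site CCGGAAGT, searched on both strands and chosen after the sequences had been read, was in 11 of 58 member windows, from 9 genes (19.0%), and in 3.89% of all windows. Windows of a gene with several starts can overlap, base composition was not matched, and a match is a description of letters, not a bound site. All 32851 windows come from 27025 genes, whether or not tested here, and were not matched to the members for expression. The genes called as higher held the response element in 2 of 30 windows (6.67%) and the ETS site in 3 of 30 (10.0%). The stretch of Eef2 with its response element is given, and 5 examples of the ETS site chosen after the hits were seen, each 5′ to 3′ with the matched motif in capitals. Eif2ak1, Eif3d, Eif3l and Eif5a2 also held the ETS site.
Eef2, chr10:81176622-81176651 (+): aggccgggcgtTGACGTCAgcggtctcttc
Eef1b2, chr1:63176821-63176850 (+): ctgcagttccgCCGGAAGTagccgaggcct
Eif2b2, chr12:85219486-85219515 (+): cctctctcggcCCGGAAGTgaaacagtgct
Eif2b4, chr5:31193120-31193149 (-): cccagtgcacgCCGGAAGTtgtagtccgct
Eif4e2, chr1:87213905-87213934 (+): tcgccagccaaCCGGAAGTagccgggccct
Eif5a, chr11:69920667-69920696 (-): cagccgtagcaCCGGAAGTgttccccattg

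Among the eIF1 proteins, which guide start codon choice, Eif1b stood at 10.57, 10.65, 10.07 and 10.13 in the 4 vehicle samples and 10.62, 10.44, 10.44 and 10.18 after GnRH. Its groups overlapped, with a log2 change of 0.07 ± 0.18 (SE, limma adjusted p = 1.00). Eif1a, coding for eIF1A, stood at 9.98, 10.22, 9.91 and 9.59 in vehicle and 9.73, 9.80, 10.05 and 9.31 after GnRH, a change of -0.20 ± 0.19. Eif1ad, a related protein, had a change of -0.06 ± 0.17, and the X-linked Eif1ax was not above background on any array.

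The eIF2 group of 13 probes for subunits, the GTP exchange complex eIF2B and eIF2D had 11 tested, with mean signals from 4.80 to 10.98. Here and below, brighter and dimmer tell the probes of 1 gene apart and do not compare amounts. Eif2s2, the beta subunit, read 11.06, 11.22, 11.07 and 10.89 in vehicle and 10.75, 10.92, 11.17 and 10.75 after GnRH on its brighter probe, a change of -0.16 ± 0.15. Its GnRH values overlapped those of vehicle, and the second probe gave the same change with a wider error, -0.16 ± 0.40. Eif2s3x, the gamma subunit, was at 0.19 ± 0.23, whereas its Y-linked copy Eif2s3y was not above background on any array. The eIF2B subunits had changes from -0.14 ± 0.20 for Eif2b4 to 0.08 ± 0.20 for 1 probe of Eif2b1 (log2 change ± SE). Eif2b4 was at 6.25 on vehicle replicate 1 and between 6.93 and 7.08 on the other vehicle arrays. The GnRH samples read 6.54, 6.65, 6.59 and 6.96, inside the vehicle range. Eif2d, a factor that delivers transfer RNA without GTP, had probes at 0.07 ± 0.18 and 0.09 ± 0.19.

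Of the eIF2 alpha kinases, Eif2ak1, the heme-regulated kinase, read 8.48, 8.03, 8.15 and 8.60 in vehicle and 8.52, 8.96, 8.29 and 8.64 after GnRH. This is a change of 0.29 ± 0.19 with overlapping groups (SE, limma adjusted p = 1.00). Eif2ak2, the kinase PKR that senses double-stranded RNA, read 8.84, 8.72, 8.77 and 8.55 in vehicle and 8.79, 8.75, 8.75 and 8.51 after GnRH, a change of -0.02 ± 0.14. The lowest array of each group was replicate 4. Eif2ak4, the amino acid sensor GCN2, was not above background on any array.

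The eIF3 group, the scaffold complex of initiation, had 18 probes for 12 genes and 13 probes tested for 9 genes. Signals of the tested probes averaged 4.59 to 9.30. Of the 13 changes 12 were below 0 (92.3%, beside 51.9% over the array), with a median of -0.11. The probes share arrays and some are of 1 gene, so this count is a description. Without vehicle replicate 2 the eIF3 median was 0.10. Without normalization between arrays the eIF3 median was 0.02, beside 0.11 for all tested probes. Relative to all tested probes the eIF3 median was -0.10, and -0.09 without that normalization. Eif3d, a cap-binding subunit of the complex, read 8.83, 10.02, 9.80 and 8.70 in vehicle and 9.09, 9.36, 9.57 and 9.03 after GnRH, a change of -0.08 ± 0.30. The GnRH values all lay within the vehicle range. Eif3f read 8.09, 9.32, 8.66 and 8.60 in vehicle and 8.34, 8.61, 8.90 and 8.37 after GnRH, a change of -0.11 ± 0.25, and Eif3k had a change of -0.07 ± 0.29. Eif3j1, a loosely bound subunit, was at -0.29 ± 0.16. The probes of Eif3e, Eif3h and Eif3m were above background on 2 arrays at most and were not tested.

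The eIF4 group holds the messenger RNA recruiting factors and also the eIF4E-binding proteins and Eif4a3. In it 18 of 23 probes were tested, with mean signals from 4.76 to 13.25 and a median change of -0.09. Eif4a1, the helicase, read 13.24, 13.22, 13.19 and 13.40 in vehicle and 13.27, 13.20, 13.19 and 13.24 after GnRH on its brighter probe. The change of -0.04 ± 0.12 had an interval of -0.31 to 0.24. Its raw bead signal on that probe was 6472 to 10900 in vehicle and 9234 to 11410 after GnRH. Eif4a3, the paralog in the exon junction complex, read 6.37, 6.55, 6.42 and 6.59 in vehicle and 6.37, 6.75, 6.86 and 7.02 after GnRH, a change of 0.26 ± 0.16. The groups overlapped through GnRH replicate 1.

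Eif4e, the cap-binding protein, read 7.69, 8.47, 8.44 and 8.12 in vehicle and 7.74, 7.79, 8.24 and 7.93 after GnRH, a change of -0.26 ± 0.20. Its GnRH values lay in the vehicle range. Eif4h, a helicase cofactor, read 10.72, 11.48, 11.31 and 10.95 in vehicle and 10.86, 10.79, 11.19 and 10.82 after GnRH, a change of -0.20 ± 0.19. The groups overlapped, and the Eif4b probe was above background on 3 arrays and was not tested. The eIF4E-binding proteins, translational repressors, had changes of 0.02 ± 0.30 for Eif4ebp1 and -0.06 ± 0.19 for Eif4ebp2. Eif4enif1, the shuttling protein 4E-T, read 9.96, 10.53, 10.39 and 9.61 in vehicle and 9.97, 9.63, 10.39 and 10.00 after GnRH on its brighter probe, a change of -0.13 ± 0.23. Its dimmer probe read 7.71, 7.61, 7.72 and 7.87, then 7.50, 7.37, 7.65 and 7.63, a change of -0.19 ± 0.13. On the dimmer probe 2 GnRH values, those of replicates 1 and 2, lay below every vehicle value. Eif4g2, the scaffold relative DAP5, read 8.92, 8.63, 9.10 and 8.79 in vehicle and 8.84, 8.48, 8.92 and 8.28 after GnRH on its brighter probe. The groups overlapped, at -0.23 ± 0.18. Eif4e1b, the form known from oocytes, and Eif4ebp3 were not above background on any array.

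**Figure D2:**
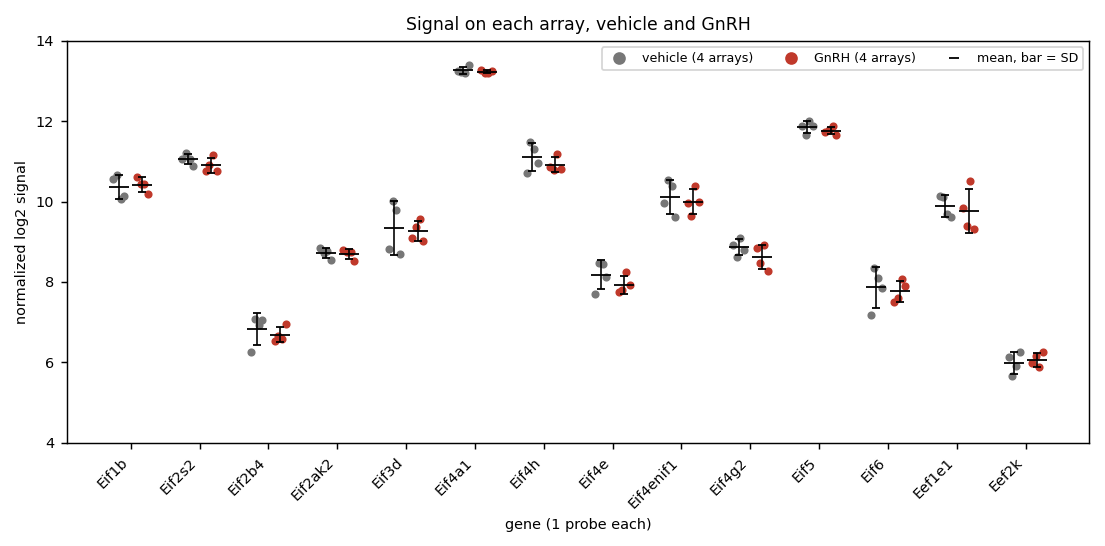
Normalized log2 signal (y axis) on each array for 1 probe per role, the brightest tested probe of that role (x axis, gene), with the mean and SD of 4 vehicle (grey) and 4 GnRH (red) arrays. The groups overlap for each of the 14 genes, with Eif4a1 spanning 13.19 to 13.40 and Eif3d 8.70 to 10.02, and signals of different probes do not rank amounts.

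Eif5, which activates GTP hydrolysis on eIF2, read 11.89, 11.66, 12.00 and 11.88 in vehicle and 11.74, 11.77, 11.89 and 11.66 after GnRH on its brightest probe. That probe's change was -0.10 ± 0.13, and the 2 other probes gave -0.09 ± 0.22 and -0.07 ± 0.45. Eif5a, the hypusine-containing factor that helps stalled ribosomes, was at 0.09 ± 0.15 on its brighter probe. Its paralog Eif5a2 had the largest negative change among the members. It read 4.90, 5.85, 6.17 and 6.04 in vehicle and 5.25, 4.78, 5.15 and 5.27 after GnRH. Vehicle replicate 1 lay among the GnRH values, and the other vehicle arrays lay above all of them. The change was -0.63 ± 0.26 (95% interval -1.21 to -0.04, limma adjusted p = 1.00) on raw signals of 46.0 to 89.0. Without vehicle replicate 1 it was -0.91 (limma adjusted p = 0.104). Eif6, which keeps the ribosomal subunits apart, read 7.17, 8.36, 8.10 and 7.84 in vehicle and 7.51, 7.60, 8.08 and 7.89 after GnRH, at -0.09 ± 0.25. Its GnRH values lay inside the vehicle range, and the 2 probes of Eif5b were not above background on any array.

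The eEF group counts the elongation factors together with the eEF1A methyltransferases, Eef2k and Eef1e1. Of its 24 probes 16 were tested, with mean signals from 4.61 to 9.82 and a median change of -0.14. The ends of that range were an Eef1aknmt probe and Eef1e1, so neither range nor median describes the elongation factors alone. Eef2, the translocase, read 5.03, 5.68, 5.37 and 4.93 in vehicle and 4.79, 4.86, 5.06 and 4.69 after GnRH on its brightest probe. Replicates 1, 2 and 4 of GnRH lay below every vehicle value and replicate 3 above 2 of them, at a change of -0.40 ± 0.18 (95% interval -0.81 to 0.01, limma adjusted p = 1.00). A second Eef2 probe gave -0.16 ± 0.19, and the other probe was not tested. Eef2k, the kinase that inhibits eEF2, read 6.13, 5.65, 5.92 and 6.25 in vehicle and 5.98, 6.16, 5.88 and 6.26 after GnRH. The groups overlapped, at 0.09 ± 0.17.

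The 3 probes of Eef1a2, the eEF1A isoform of neurons and muscle, gave -0.18 ± 0.16, -0.19 ± 0.21 and -0.22 ± 0.24. The 1 probe of Eef1a1, the general isoform, was not above background on any array, and read 4.22 to 4.28 in vehicle and 4.25 to 4.32 after GnRH. A probe below background does not show that the transcript is absent, here or for the other genes. The exchange factor subunit Eef1d had a probe above background on no array and another with a vehicle mean of 7.98. Among the exchange factor subunits the changes were mixed in sign, with Eef1g at -0.04 ± 0.15, Eef1d at 0.16 ± 0.18 and 0.08 ± 0.15, and the 3 Eef1b2 probes from -0.31 ± 0.25 to -0.08 ± 0.29. Eef1e1, a subunit of the multisynthetase complex also called AIMP3, read 10.13, 10.11, 9.68 and 9.61 in vehicle and 9.84, 9.39, 10.51 and 9.32 after GnRH. Its GnRH values spanned more than the vehicle values, at -0.12 ± 0.26. Among the eEF1A methyltransferases the lowest unadjusted p belonged to an Eef1aknmt probe that read 4.63, 4.60, 4.78 and 4.77 in vehicle and 4.43, 4.55, 4.68 and 4.43 after GnRH. The groups overlapped near the floor, at -0.17 ± 0.13, with 3 of 4 vehicle and 1 of 4 GnRH arrays above background. A brighter Eef1aknmt probe, above background on every array, read 5.23 to 6.18 in vehicle and 5.32 to 5.77 after GnRH. Its groups overlapped as well, at -0.24 ± 0.20.

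Set side by side, the factor groups had median log2 changes of 0.02 for eIF2, -0.11 for eIF3, -0.09 for eIF4 and -0.14 for eEF, beside -0.01 for all tested probes. No test was made between the groups, whose probes share the same arrays. With each probe's mean over the 8 arrays subtracted, the median eIF3 probe stood at -0.38, 0.55, 0.28 and -0.12 on vehicle replicates 1 to 4 and at -0.27, -0.18, 0.26 and -0.03 on GnRH replicates 1 to 4. The vehicle mean was 0.08 ± 0.42 and the GnRH mean -0.06 ± 0.23 (SD, n = 4). The eIF3 values of all GnRH arrays thus lay within the range of the vehicle arrays. The eEF median was 0.04 ± 0.17 in vehicle and -0.06 ± 0.11 after GnRH, the eIF4 median 0.01 ± 0.07 and -0.02 ± 0.14, and the eIF2 median -0.01 ± 0.27 and -0.04 ± 0.17 (SD, n = 4). Relative to all tested probes the eIF2 median was 0.03, and it was -0.02 with median scaling and with no normalization between arrays. Without vehicle replicate 2 the eIF3 median change turned to 0.10, and without vehicle replicate 4 the eIF2 median turned to -0.07. Without vehicle replicate 1 the eIF3 median was -0.26. The eIF2 median was also negative without vehicle replicate 1 (-0.04) and without GnRH replicate 3 (-0.07). Without GnRH replicate 4 the eEF median was -0.04 and the eIF4 median -0.03.

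The eIF3 probes moved together from array to array. After removal of the group means, the median pairwise correlation over 8 arrays was 0.60 for the 13 eIF3 probes, 0.27 for eIF2, 0.17 for eEF, 0.06 for eIF4 and 0.00 over all tested probes. All points share the same arrays and their processing, some pairs are probes of 1 gene, and the value is a description. Vehicle replicate 1 was the lowest vehicle array for 6 of 13 eIF3 probes and vehicle replicate 4 for 6, beside 33.9% and 28.7% of all tested probes. The same arrays were lowest for 4 and 7 of 11 eIF2 probes, for 7 and 6 of 16 eEF probes and for 23 and 30 of all 70. For eIF4 they were lowest for 4 and 6 of 18 probes.

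**Figure D3:**
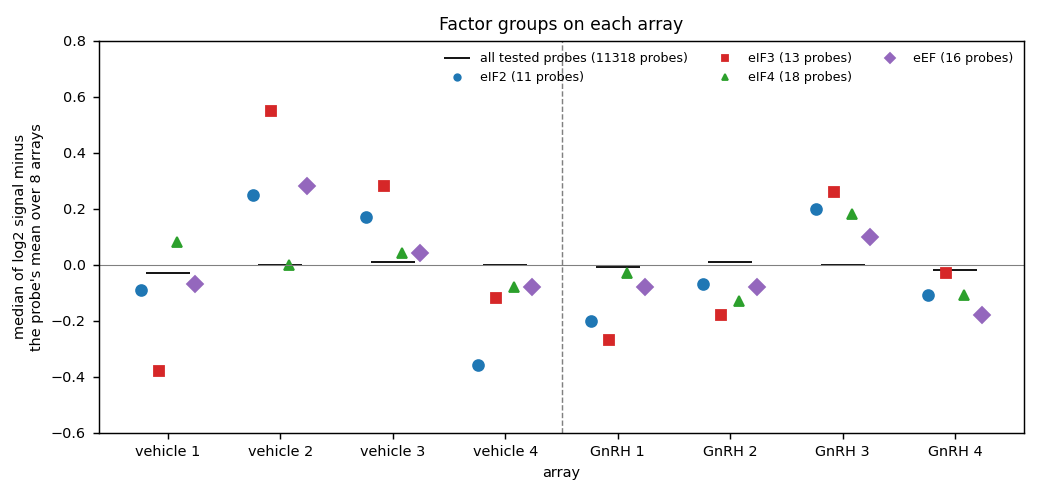
Median over the probes of a factor group of the log2 signal minus the probe's mean over the 8 arrays (y axis), for each array (x axis, vehicle left and GnRH right of the dashed line). The eIF3 group (red squares) ranges from -0.38 to 0.55 among vehicle arrays alone, while all tested probes (black bars) stay near 0.

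Probes of 1 gene were compared through the difference of their signals on each array. The 20 member genes with at least 2 tested probes gave 30 pairs. For 0 of them did a difference in response to GnRH pass (limma on the per-array differences, adjusted over 3302 pairs of the array, of which 0% passed). A pair that did not pass is not thereby shown to respond alike. At an unadjusted p below 0.05 there were 2 member pairs, beside 1.91% of all pairs. Both were pairs of Eif4e3 and shared the same dim probe, so they are not separate cases. The 2 changes had the same sign in 23 of 30 member pairs (76.7%), beside 65.1% of all pairs, and in 15 of the 20 genes all tested probes had 1 sign. The median absolute difference in log2 change within a pair was 0.06, beside 0.12 over all pairs.

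The 3 member genes with the largest probe differences were Eif4e3, Eif3a and Eif3i. Eif4e3, an eIF4E relative, had a dim probe at 4.88, 4.55, 4.62 and 4.29 in vehicle and 4.76, 5.14, 4.94 and 4.94 after GnRH. This probe was above background on 2 vehicle and 4 GnRH arrays and gave 0.36 ± 0.16, whereas the other probes gave -0.17 ± 0.20 and -0.18 ± 0.21. The differences in response, 0.53 ± 0.19 and 0.54 ± 0.20 in size, did not pass (limma adjusted p = 0.998). For Eif3a, the largest eIF3 subunit, 1 probe read 6.34, 7.07, 7.59 and 7.51 in vehicle and 6.24, 6.55, 6.90 and 6.67 after GnRH, at -0.54 ± 0.27, and the other read 8.93, 8.13, 8.35 and 8.27, then 8.55, 8.36, 8.54 and 8.15, at -0.02 ± 0.19. Vehicle replicate 1 again lay within the GnRH range on the first of these probes. The Eif3i probe with the highest change read 5.64, 5.84, 5.62 and 4.90 in vehicle and 5.48, 5.44, 6.02 and 5.83 after GnRH, at 0.19 ± 0.22. That with the lowest read 7.29, 8.46, 8.20 and 8.08, then 7.47, 7.59, 8.16 and 7.97, at -0.21 ± 0.25. The groups overlapped on both, and the other probe gave -0.03 ± 0.21.

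Probes of 1 gene with like changes after GnRH could still differ from array to array. The dimmest Eif5 probe read 7.52, 6.12, 6.30 and 5.16 in vehicle and 6.59, 5.66, 6.82 and 5.73 after GnRH, a range of 2.36, while the brightest Eif5 probe had a range of 0.34. The dimmer Eif4g2 probe read 7.48, 5.88, 5.45 and 4.69 in vehicle and 6.51, 5.51, 6.22 and 4.78 after GnRH, and the dimmer Eif5a probe read 10.78, 10.19, 9.70 and 8.85, then 10.28, 9.43, 10.31 and 9.41. In these probes, and in the dimmer probes of Eif2s2 and Eif4a2, vehicle replicate 1 was the highest and vehicle replicate 4 the lowest vehicle array, and GnRH replicates 1 and 3 lay above GnRH replicates 2 and 4. These probes were chosen after their values were seen. The difference between 2 probes ranged by more than 1 log2 unit over the 8 arrays for 13 of 30 member pairs (43.3%), beside 38.7% of all pairs.

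**Figure D4:**
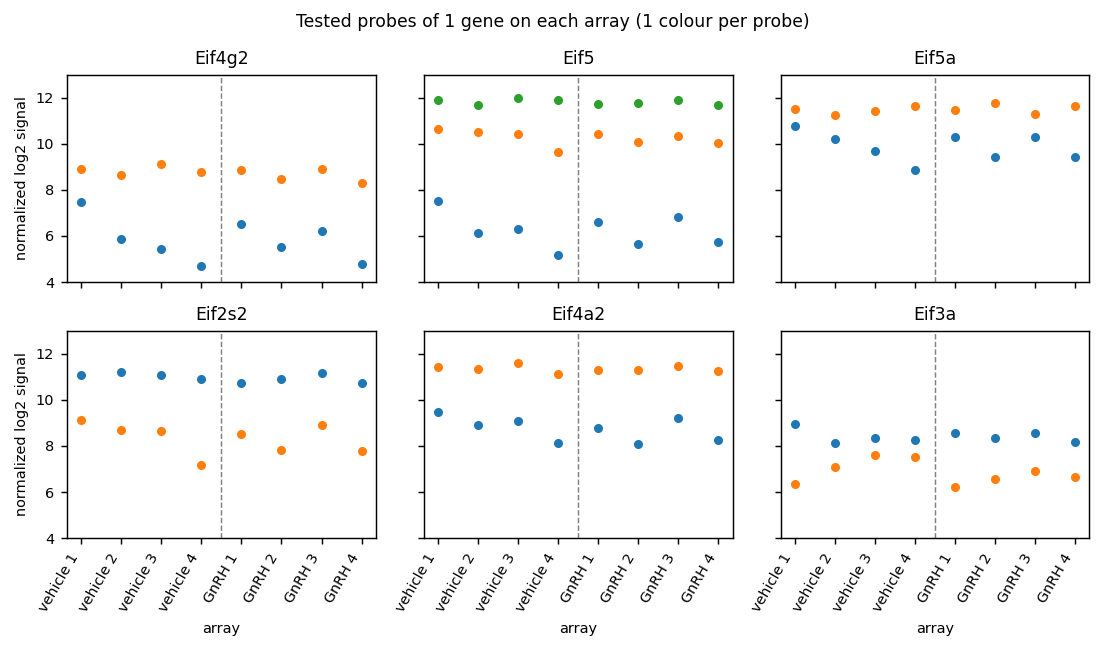
Normalized log2 signal (y axis) on each array (x axis, vehicle left and GnRH right of the dashed line) for the tested probes of 6 genes, 1 colour per probe. In Eif5 the brightest probe spans 0.34 over the arrays and the dimmest 2.36, while in each panel vehicle and GnRH values overlap.

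Among other genes of the pathway, regulators of initiation had 0 called of 22 tested genes, and those for termination and recycling 0 of 8. Mitochondrial translation factors had 0 called of 8. Over the whole array 0.265% of tested probes were called as higher and 0% as lower. Median log2 changes were 0.06, 0.01 and -0.08 over the tested probes of these lists, beside -0.01 for all tested probes. Ppp1r15a, the GADD34 subunit that directs a phosphatase to eIF2 alpha, read 7.13, 7.30, 7.35 and 7.84 in vehicle and 8.51, 8.86, 8.96 and 10.04 after GnRH. All GnRH values lay above all vehicle values, at 1.69 ± 0.30 (limma adjusted p = 0.0612), which did not pass. The call was gained without GnRH replicate 4 (1.37 ± 0.21, limma adjusted p = 0.037) and under 5 other settings, with limma adjusted p from 0.000646 to 0.0451. Impact, an inhibitor of GCN2 signalling, read 9.86, 9.86, 10.04 and 9.64 in vehicle and 10.31, 10.19, 10.25 and 10.39 after GnRH, at 0.44 ± 0.14, which did not pass (limma adjusted p = 1.00). Its groups did not overlap either, as for 1.53% of tested probes. The lowest p among termination factors was that of Hbs1l, a ribosome rescue factor, at 0.32 ± 0.21, followed by the GTPase Gtpbp1 at 0.21 ± 0.15. Among mitochondrial factors the lowest were those of the initiation factors Mtif2, at -0.32 ± 0.18, and Mtif3, at -0.21 ± 0.18.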

How the data were processed

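The authors deposited average bead signal intensity per probe with a detection p-value beside it, per the file headers, linear and not normalized between arrays, and a table of processed intensity by a method not given in the sources used here. Groups and replicate numbers come from the sample titles. From the raw table, background was removed by normexp using the detection p-values, with 16 as the offset, followed by quantile normalization and log2, as neqc in limma 3.58.1 does (R 4.3.3). A probe was tested if 4 or more of the 8 arrays had it below 0.05 in detection p, which left 11318 of 25697 (44.0%), with lmFit and eBayes and Benjamini-Hochberg adjustment at 0.05 over all of them. The difference of 2 probes of a gene was tested in the same way over all such pairs. Quantile normalization removes differences in total yield.

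The 94 member probes were named from the platform annotation, and all matched the RefSeq gene table by gene identifier with the same symbol. The members and lists were chosen with earlier results of these data known. Values on each array are given, per role, for the gene with the highest mean signal and that with the lowest p, for the 3 genes whose probes differed most, and from each pathway list the 2 genes with the lowest p are named; genes named beyond this were chosen after their values were seen. Alternatives covered offset, background correction, normalization, the authors' processed values, the filter, variance model, array weights, replicate block and leaving out each array.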

Additional observations from a re-analysis of the deposited data

Results flagged for a closer look

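The GnRH replicate 4 value of Eif2ak2, at 8.51, stood apart from the other GnRH arrays at 8.75 to 8.79. It was the only lone array among 54 sets of 4 arrays examined, those of the 27 member probes that the naming rule chose, where chance alone marks about 1 in 20.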

How the results depend on the processing

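In 18 alternative settings 0 member probes were called in either direction, and 0 member pairs passed as differing. The lowest adjusted p of a member was 0.0905, for Eif5a2 with array weights (limma, log2 change -0.87). Of 27 named member probes 14 kept the sign of their change in every setting that tested them, and no member was called in any. Leaving out 1 array gave 62 to 65 member probes with an interval inside 2-fold, and median changes of -0.18 to -0.03 for the members, -0.07 to 0.10 for eIF2, -0.26 to 0.10 for eIF3, -0.19 to -0.03 for eIF4 and -0.21 to -0.04 for eEF. With array weights, which gave vehicle replicate 1 a weight of 0.341, the medians were -0.18 for the members, -0.20 for eIF2 and -0.38 for eIF3. Over the array the count of higher probes was 14 with no filter on dim probes, 46 with array weights and 17 to 27 leaving out 1 array (17 without vehicle replicate 3), and that of lower probes 4 with array weights and 0 to 1 leaving out 1 array (1 without vehicle replicate 1). The median of all tested probes was 0.07 with median scaling and 0.11 with no between-array normalization, where the members' median was -0.01 and 0.03, both -0.08 relative to it. Initiation regulators had 1 called gene, Ppp1r15a, with median scaling, no between-array normalization, the variance trend, array weights and the replicate block, and 0 to 1 leaving out 1 array (1 without GnRH replicate 4). With no filter on dim probes 1 pair of the array passed as differing. The cause of these shifts was not tested. Deviations of same-numbered samples correlated at r = 0.723, 0.256 and 0.649 for replicates 1, 3 and 4 and at -0.227 for replicate 2. The value of replicate 3 was exceeded by vehicle replicate 2 with GnRH replicate 3 (0.577) and by vehicle replicate 4 with GnRH replicate 2 (0.286). The numbers were not taken as pairs. With the replicate block 43 probes of the array were higher, 0 of them members.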
